A study of Saccharomyces cerevisiae with 12 samples.

Results

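The MATalpha-specific genes of Saccharomyces cerevisiae considered here are MF(ALPHA)1, MF(ALPHA)2, STE3 and SAG1, each represented by 1 probe set. They were taken by their gene symbol in the platform annotation and are 4 of the 5449 S. cerevisiae genes measured. They were chosen by their values over the 4 times of this series, which were already known, so their levels and differences are given as a description and without a test. The strain CENPK 113-7D was grown in SD, a synthetic medium, with 2% glucose. Its RNA was measured on 12 Affymetrix arrays, 3 each from logarithmic growth (log phase), day 2, day 6 and day 10. The labels count the days in stationary phase and the design text counts them in cultivation, so their starting point is not settled. No genotype other than the strain, and no treatment other than time, is given for any group.

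Haploid budding yeast has the mating type a or alpha, set by the allele at the MAT locus. In alpha cells the activator alpha1, bound together with Mcm1, turns on a small set of genes that a cells and diploids keep off. These encode the pheromone precursors (alpha-factor), the receptor for the a-factor of the opposite type and the surface adhesin of alpha cells. CENPK 113-7D is known as a haploid MATa strain, so the MATalpha-specific genes are those of the mating type opposite to its own. The labels do not state the mating type.

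All levels are the deposited log2 values, and a level is compared only within a gene. The 95th percentile of the 1746 probe sets for another yeast species on the same array served as background, and lay between 5.77 and 5.86. Between 5137 and 5259 genes were above it on each array. Nothing in the labels tells whether arrays of the same time are separate cultures, so the p-values reflect only how these samples vary, perhaps for technical reasons, and the number of arrays limits precision. In bulk RNA, more cells that express a gene and more of its RNA per cell cannot be told apart. Differences are relative to the other genes of an array. With each array centred on its bacterial and phage controls for the hybridisation, the gene median shifted relative to log phase by -0.42 (day 2), -1.19 (day 6) and -0.97 (day 10). Between day 6 and day 2 this shift was -0.77, and between day 10 and day 6 it was 0.22. Without the control bioB the shifts relative to log phase were -0.05 (day 2), -0.86 (day 6) and -0.64 (day 10). Those of day 6 from day 2 and of day 10 from day 6 were then -0.81 and 0.21. The level of bioB minus that of bioC, another such control, averaged -2.17 in log phase, -0.79 on day 2, -0.88 on day 6 and -0.89 on day 10. The 3' signal exceeded the 5' signal, averaged over 8 control genes and used to judge RNA integrity, by 1.25 ± 0.07 in log phase and 0.86 ± 0.24 on day 2. The excess was 1.65 ± 0.05 for day 6 and 1.28 ± 0.07 for day 10 (log2, SD, n = 3). It was thus lowest on day 2, the time at which several of the genes below were highest, and values with it as a covariate are given where they differ.

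MF(ALPHA)1 (YPL187W) encodes the main precursor of alpha-factor, the peptide pheromone that alpha cells secrete to a cells. Its level was 5.95, 6.09 and 6.00 on the log phase arrays, 10.28, 10.65 and 10.51 on day 2, 5.91, 5.89 and 5.97 on day 6, and 6.16, 6.69 and 6.09 on day 10. The means were 6.01 ± 0.07 in log phase, 10.48 ± 0.19 on day 2, 5.92 ± 0.04 on day 6 and 6.31 ± 0.33 on day 10 (n = 3 each, SD). The 3 day 2 arrays stood far above the other 9, and these 9 lay close to background. The mean exceeded the mean background of the same arrays by 4.67 on day 2, by 0.17 in log phase, by 0.14 on day 6 and by 0.51 on day 10. All 12 arrays were above the 95th percentile of the background probe sets, but only the 3 of day 2 were above their 99th.

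MF(ALPHA)1 was 4.47 ± 0.13 (SE) higher on day 2 than in log phase, a fold of 22.2. This was the third highest of the 5449 differences between these times. On day 6 it was lower than on day 2 by a difference of -4.56 ± 0.13, a fold of 23.6, which was the lowest difference of all 5449 genes. The scale has a floor and the level outside day 2 is close to it, so both folds may understate the change. Between day 10 and day 2 the difference was -4.17 ± 0.13, the third lowest. In order of mean the times ran day 6, log phase, day 10 and day 2. The arrays of day 6 overlapped those of log phase, and the arrays of log phase overlapped those of day 10. The day 10 mean rested on replicate 2, at 6.69: the difference of day 10 from day 6 was 0.39 ± 0.13 with it and 0.20 without it, and 0.094 with the 3' minus 5' excess as a covariate. Against log phase the day 10 difference was 0.30 ± 0.13, 0.11 without that array, -0.67 with hybridisation control centring and -0.34 with the same centring without the control bioB.

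**Figure D1:**
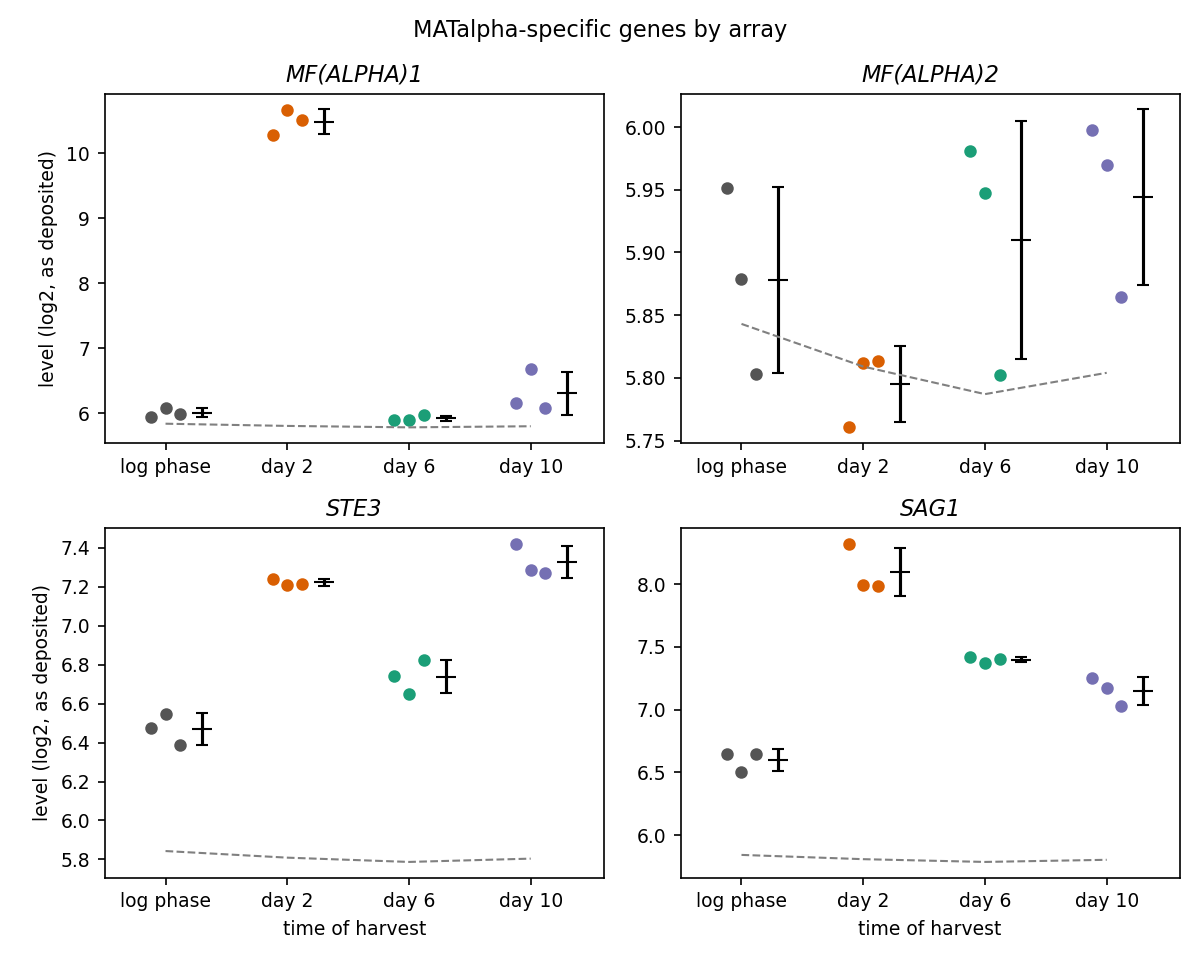
Level of each MATalpha-specific gene on the 12 arrays (deposited log2 values, vertical axis, a separate range in each panel) by time of harvest (horizontal axis). Points are arrays in the order of their replicate numbers, bars beside them are the mean and SD of 3 arrays, and the dashed line is the mean background of a time. MF(ALPHA)1 reached 10.48 on day 2 and stayed below 6.7 on the other arrays, while MF(ALPHA)2 spanned only 0.24.

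MF(ALPHA)2 (YGL089C) encodes the minor precursor of the same pheromone. It read 5.95, 5.88 and 5.80 in log phase, 5.76, 5.81 and 5.81 on day 2, 5.98, 5.95 and 5.80 on day 6, and 6.00, 5.97 and 5.86 on day 10. The means were 5.88 ± 0.07, 5.80 ± 0.03, 5.91 ± 0.10 and 5.94 ± 0.07 in the same order of times (SD, n = 3 each). The gene stayed at the background level throughout: 10 of 12 arrays were above the 95th percentile of the background probe sets, 0 were above the 99th, and the day 2 mean lay below background. Its range over the 12 arrays was 0.24, and 2.79% of genes had a smaller SD over the arrays. The difference of day 2 from log phase was -0.08 ± 0.06, that of day 6 from day 2 was 0.11 ± 0.06, and that of day 10 from day 6 was 0.03 ± 0.06. The arrays of neighbouring times overlapped in each case. With hybridisation control centring the difference of day 6 from day 2 became -0.65, and -0.69 without bioB. At the floor of the scale a change of so dim a gene is compressed, so a small change in its RNA could not be seen.

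STE3 (YKL178C) encodes the receptor for a-factor, a membrane protein that signals through the G protein shared by both mating types. Its level was 6.48, 6.55 and 6.39 in log phase, 7.24, 7.21 and 7.22 on day 2, 6.74, 6.65 and 6.82 on day 6, and 7.42, 7.29 and 7.27 on day 10. The means were 6.47 ± 0.08 in log phase, 7.22 ± 0.02 on day 2, 6.74 ± 0.09 on day 6 and 7.33 ± 0.08 on day 10 (n = 3 each, SD). It was higher on days 2 and 10 than on day 6 between them, and no 2 times had overlapping arrays, although day 2 and day 10 nearly met. All 12 arrays were above background, and 6 were above the 99th percentile.

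STE3 was 0.75 ± 0.06 higher on day 2 than in log phase, a fold of 1.68, at place 928 among the 5449 differences counted from the highest. This difference was 0.70 with hybridisation control centring without bioB and 0.33 with all hybridisation controls. The difference of day 6 from day 2 was -0.48 ± 0.06, and -1.25 with that centring. Between day 10 and day 6 the difference was 0.59 ± 0.06, a fold of 1.50. Day 10 exceeded day 2 by 0.10 ± 0.06 as deposited. Hybridisation control centring shifted every gene by -0.55 in this comparison (-0.595 without bioB), so that STE3 then lay lower on day 10 than on day 2. Against log phase, day 10 was 0.86 ± 0.06 higher as deposited, 0.21 higher with hybridisation control centring without bioB, and turned to -0.11 with all hybridisation controls.

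SAG1 (YJR004C) encodes alpha-agglutinin, the cell wall protein by which alpha cells bind the a-agglutinin of a cells. It read 6.65, 6.50 and 6.65 in log phase, 8.32, 7.99 and 7.99 on day 2, 7.42, 7.37 and 7.41 on day 6, and 7.25, 7.17 and 7.03 on day 10. The means were 6.60 ± 0.09 in log phase, 8.10 ± 0.19 on day 2, 7.40 ± 0.02 on day 6 and 7.15 ± 0.12 on day 10 (n = 3 each, SD). The level was highest on day 2, lower on day 6 and lower again on day 10, where it was still above log phase, and no 2 times had overlapping arrays. All 12 arrays were above background, and the 9 arrays after log phase were above the 99th percentile.

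SAG1 was 1.50 ± 0.09 higher on day 2 than in log phase, a fold of 2.83. The difference of day 6 from day 2 was -0.70 ± 0.09, and it was -1.35 with the 3' minus 5' excess as a covariate, -1.47 with hybridisation control centring and -1.51 without bioB. Day 10 differed from day 6 by -0.25 ± 0.09. This turned to 0.05 with the covariate, and was -0.03 with hybridisation control centring. Against log phase, day 10 was 0.55 ± 0.09 higher as deposited, but this turned to -0.42 with hybridisation control centring and -0.09 without bioB.

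On day 2, 3 of the 4 genes lay above log phase on arrays that did not overlap, which 40.1% of all 5449 genes did in that direction. On day 6 the same 3 genes lay below day 2 without overlap, as did 32.6% of all genes. On day 10, MF(ALPHA)1 and STE3 lay above and SAG1 below day 6 without overlap, against 32.6% of all genes above and 36.1% below. These are the contrasts by which the genes were chosen, and nothing is read from the counts. Over the 12 arrays, which share their times, the Pearson correlation was 0.82 between MF(ALPHA)1 and SAG1, 0.62 between STE3 and SAG1 and 0.51 between MF(ALPHA)1 and STE3. It was -0.59 between MF(ALPHA)1 and MF(ALPHA)2. The 3 genes that were higher on day 2 took different later courses. As deposited, MF(ALPHA)1 was near background on days 6 and 10, SAG1 was lower at each later time, and STE3 was near its day 2 level again on day 10. With hybridisation control centring STE3 was below its day 2 level on day 10.

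AFB1 (YLR040C), a further alpha-specific gene whose product blocks a-factor outside the cell, was not among the 4. It is on a list that was also chosen with earlier results of these data known. Its adjusted p-values come from the fit of all genes and are not an independent test. Its level was 6.71, 6.74 and 6.76 in log phase, 7.35, 7.30 and 7.34 on day 2, 6.97, 6.79 and 6.78 on day 6, and 7.54, 7.61 and 7.63 on day 10. It rose on day 2 against log phase by 0.59 ± 0.06 (adjusted p = 4.74e-07), where 39% of all genes rose and 41.5% fell. This call was lost with hybridisation control centring, where the difference was 0.17, but was kept without bioB, at 0.55. Against day 2 it was lower on day 6, with a difference of -0.48 ± 0.06 (adjusted p = 9e-06), where 31.9% of all genes fell and 35.2% rose. On day 10 it was 0.75 ± 0.06 above day 6 (adjusted p = 3.26e-07), where 28.8% of all genes rose and 32.1% fell. No 2 times had overlapping arrays. The difference of day 6 from log phase, 0.11 ± 0.06, was not called (adjusted p = 0.0974). The difference of day 10 from log phase, 0.86 ± 0.06 (adjusted p = 1.36e-08), turned to -0.11 with hybridisation control centring and was 0.21 and not called without bioB. AFB1 followed STE3 most closely among the 4 genes, with a correlation of 0.95 over the 12 arrays, against 0.44 with SAG1 and 0.40 with MF(ALPHA)1.

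The activators and repressors of mating-type genes were then examined. HMLALPHA1 (YCL066W), the copy of the alpha1 activator gene kept silent at HML, lay below background on 12 of 12 arrays, between 5.37 and 5.58. Its probe set is of a kind that matches several sequences, and alpha1 at MAT has the same sequence as alpha1 at HML. Its lowest adjusted p over the 6 comparisons was 0.0659, for day 2 against log phase, and below background a difference has no fold. HMRA1, which shares its sequence with the a1 gene of MATa, was above background on 12 of 12 arrays. It averaged 8.77 ± 0.06 in log phase, 8.32 ± 0.32 on day 2, 8.74 ± 0.10 on day 6 and 8.43 ± 0.19 on day 10 (n = 3 each, SD). On day 2 it fell against log phase, with a difference of -0.45 ± 0.13 (adjusted p = 0.00677). The difference of day 6 from day 2, 0.43 ± 0.13 (adjusted p = 0.012), turned to -0.34 with hybridisation control centring. HMRA2 shares sequence with the alpha2 repressor gene, so its signal cannot be given to a single locus. It was 0.75 ± 0.15 higher on day 6 than on day 2 (adjusted p = 0.000756), and this turned to -0.02 with hybridisation control centring. The other 5 mating-type regulator genes of the list, at MAT and HML, are not analysed here.

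**Figure D2:**
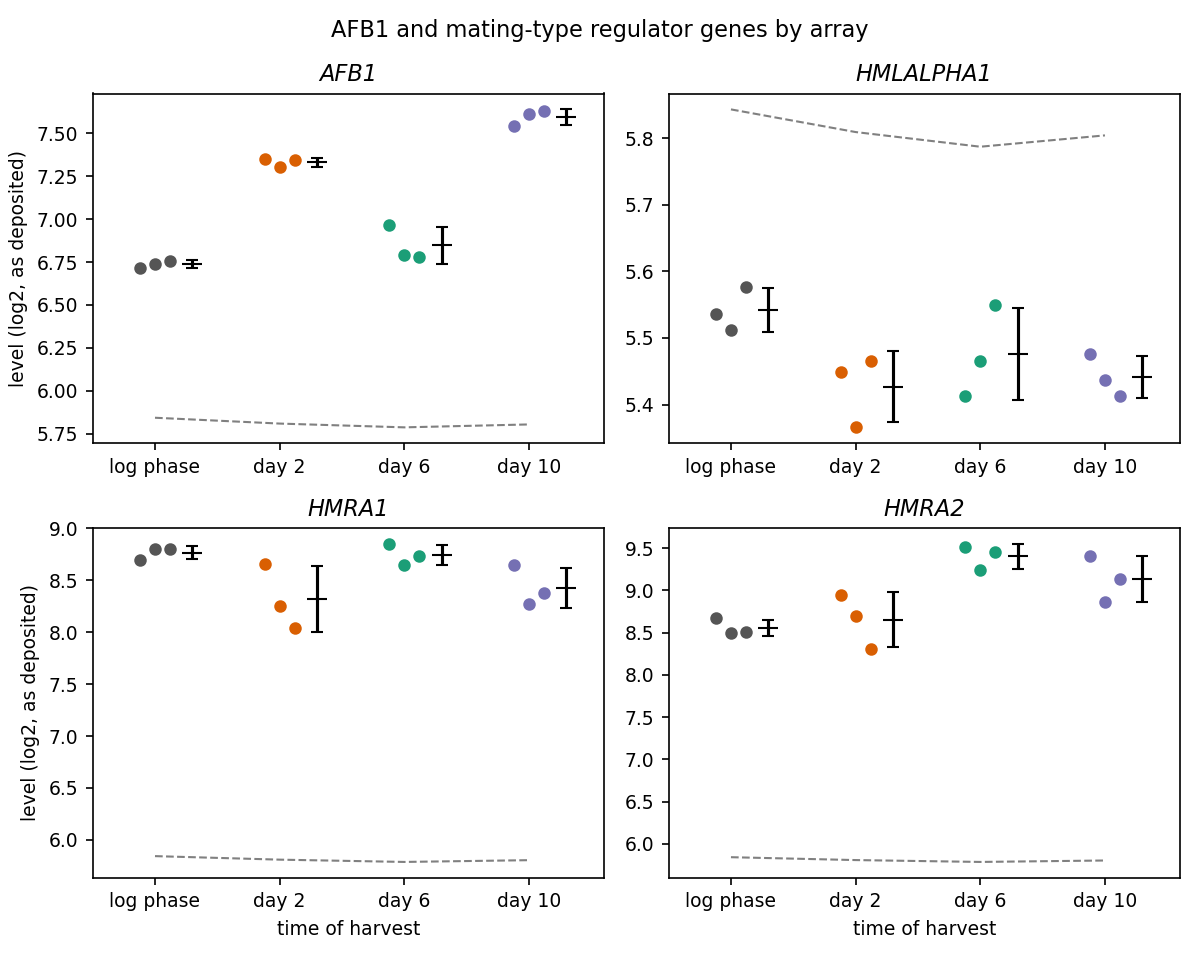
Level of AFB1 and of 3 silent-cassette genes on the 12 arrays (deposited log2 values, vertical axis, a separate range in each panel) by time of harvest (horizontal axis). Points are arrays, bars beside them are the mean and SD of 3 arrays, and the dashed line is the mean background of a time. HMLALPHA1 stayed between 5.37 and 5.58, below the line on every array, while HMRA1 and HMRA2 stayed above 8.

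MCM1, the partner of alpha1 at alpha-specific genes and also needed for a-specific genes, read 7.95, 8.02 and 8.13 in log phase, 8.59, 8.97 and 9.04 on day 2, 8.17, 8.18 and 8.03 on day 6, and 8.44, 8.52 and 8.46 on day 10. It rose on day 2 against log phase by 0.83 ± 0.10 (adjusted p = 3.13e-06). On day 6 it fell against day 2, with a difference of -0.74 ± 0.10 (adjusted p = 2.33e-05), and on day 10 it was 0.34 ± 0.10 above day 6 (adjusted p = 0.00824). TUP1 and CYC8 encode the general corepressor that acts on cell-type genes. On day 6 they fell against day 2, with differences of -0.33 ± 0.07 for TUP1 (adjusted p = 0.00113) and -0.36 ± 0.07 for CYC8 (adjusted p = 0.000507). ISW2, a chromatin remodeller used by that corepressor, was 0.33 ± 0.07 higher on day 6 than on day 2 (adjusted p = 0.00109), which turned to -0.44 with hybridisation control centring. HO, the endonuclease gene of mating-type switching, was lower on day 2 than in log phase by a difference of -0.66 ± 0.13 (adjusted p = 0.000328) and lower on day 10 than in log phase by -2.11 ± 0.13 (adjusted p = 4.59e-09). Of the 8 regulator genes measured, 1 rose and 2 fell on day 2 against log phase, beside 39% and 41.5% of all genes. Their median difference was -0.01, against -0.02 over all genes. With hybridisation control centring 1 rose and 4 fell, beside 16.6% and 55.7% of all genes. For day 6 against day 2, 3 of the 8 were called higher and 4 lower, beside 35.2% and 31.9% of all genes. With the 3' minus 5' covariate, 0 were called in either direction. That covariate itself differed between these times, averaging 0.86 on day 2 and 1.65 on day 6. The share of all genes called with it is not given here, so nothing is read from this count.

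Mature alpha-factor is cut from its precursor by the proteases Kex2, Kex1 and Ste13. Of these 3 genes, 1 rose and 1 fell on day 2 against log phase, beside 39% and 41.5% of all genes. STE13, which trims the repeats, rose by 0.70 ± 0.05 (adjusted p = 2.16e-08), a value of 0.28 and not called with hybridisation control centring. Without bioB, STE13 was 0.65 and called. KEX2, which makes the first cuts, fell by a difference of -0.34 ± 0.07 (adjusted p = 0.000271). KEX1, the carboxypeptidase, differed by 0.02 ± 0.08 (adjusted p = 0.834). On day 6 against day 2, STE13 fell by a difference of -0.59 ± 0.05 (adjusted p = 4.53e-07) and KEX2 by -0.27 ± 0.07 (adjusted p = 0.00278). KEX1 was 0.99 ± 0.08 higher on day 6 than on day 2 (adjusted p = 1.85e-07), and 0.22 and not called with hybridisation control centring.

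Pheromone receptors such as Ste3 are phosphorylated, tagged with ubiquitin and taken up from the cell surface. Of 8 genes of this path, 4 rose and 3 fell on day 2 against log phase, with a median of 0.26, near the 39% and 41.5% of all genes. With hybridisation control centring 2 rose and 4 fell, against 16.6% and 55.7% of all genes. UBC5, a ubiquitin-conjugating enzyme, rose by 1.41 ± 0.07 (adjusted p = 7.77e-10), while its close relative UBC4 fell by a difference of -0.52 ± 0.07 (adjusted p = 2.24e-05). AKR1, whose product places the casein kinases at the membrane, rose by 0.78 ± 0.06 (adjusted p = 3.98e-08). The ubiquitin ligase gene RSP5 rose by 0.61 ± 0.06 (adjusted p = 6.53e-07), and SLA1, an endocytic adaptor, rose by 0.46 ± 0.07 (adjusted p = 3.03e-05). Both RSP5 and SLA1 were not called with hybridisation control centring, at 0.19 and 0.04, but were called without bioB, at 0.56 and 0.41. The casein kinase gene YCK2 was at -0.25 ± 0.07 (adjusted p = 0.00492) and the endocytosis gene END3 at -0.21 ± 0.07 (adjusted p = 0.0214), neither of them called when that centring left out bioB (-0.30 and -0.25), while YCK1 was at 0.07 ± 0.07 and not called (adjusted p = 0.336). On day 6 against day 2, 2 of the 8 were called higher and 3 lower as deposited, beside 35.2% and 31.9% of all genes. With hybridisation control centring 0 were called higher and 7 lower, beside 1.87% and 83.9% of all genes.

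The genes specific to the strain's own mating type also changed at these times. All 7 MATa-specific genes rose on day 2 against log phase, with a median of 2.34, and all 7 fell on day 6 against day 2, with a median of -2.11. In the same comparisons 39% of all genes rose and 31.9% fell. AGA2, the binding subunit of a-agglutinin and the partner of SAG1, rose by 2.66 ± 0.12 on day 2 (adjusted p = 2.94e-10). BAR1, the protease that degrades alpha-factor, rose by 2.47 ± 0.10 (adjusted p = 7.84e-11). MFA1 and MFA2, the precursor genes of a-factor, rose by 2.47 ± 0.16 (adjusted p = 6.39e-09) and 2.34 ± 0.19 (adjusted p = 6.21e-08). The a-factor is the ligand of the Ste3 receptor. ASG7, whose product inhibits signalling in newly fused cells, rose by 2.24 ± 0.09 (adjusted p = 1.06e-10). STE2, the receptor for alpha-factor, rose by 1.55 ± 0.09 (adjusted p = 3.22e-09), and STE6, the exporter of a-factor, rose by 0.89 ± 0.10 (adjusted p = 2.05e-06). The mean of each of the 7 was above background at all 4 times.

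On day 6 against day 2 the differences of the MATa-specific genes were -3.33 ± 0.09 for STE2, -3.25 ± 0.10 for BAR1, -2.87 ± 0.12 for AGA2, -2.11 ± 0.19 for MFA2, -1.77 ± 0.09 for ASG7, -1.64 ± 0.16 for MFA1 and -1.59 ± 0.10 for STE6. All 7 differences had the same direction and were called under both hybridisation control centrings, for day 2 against log phase and for day 6 against day 2. With all hybridisation controls 16.6% of all genes rose in the first comparison and 83.9% fell in the second. Without bioB these shares were 27.2% and 85.2%. Of the 7, 5 lay below log phase on day 10 and 0 above, with a median of -1.25, where 39.8% of all genes fell and 39.5% rose. Their summed level on the log2 scale ran from 11.88 to 11.98 in log phase, from 13.98 to 14.17 on day 2, from 11.82 to 11.93 on day 6 and from 10.72 to 11.39 on day 10. These levels moved beside those of MF(ALPHA)1 and SAG1 on days 2 and 6, and their part in those differences was not tested. Of 7 genes for the maturation of a-factor, 1 rose and 3 fell on day 2 against log phase, with a median of -0.14, beside 39% and 41.5% of all genes. With hybridisation control centring 1 rose and 5 fell, beside 16.6% and 55.7% of all genes. AXL1, a protease for a-factor, rose by 0.77 ± 0.06 (adjusted p = 9.78e-08). STE14, the methyltransferase, fell by a difference of -0.91 ± 0.07 (adjusted p = 7.21e-08), the protease gene RCE1 by -0.88 ± 0.08 (adjusted p = 1.67e-07), and STE23 by -0.22 ± 0.06 (adjusted p = 0.00613), a call lost with the centring without bioB (-0.26). The farnesyltransferase genes RAM1 and RAM2, at -0.09 ± 0.07 and -0.14 ± 0.07, and the protease gene STE24, at 0.13 ± 0.10, were not called (adjusted p = 0.219, 0.0686 and 0.228).

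**Figure D3:**
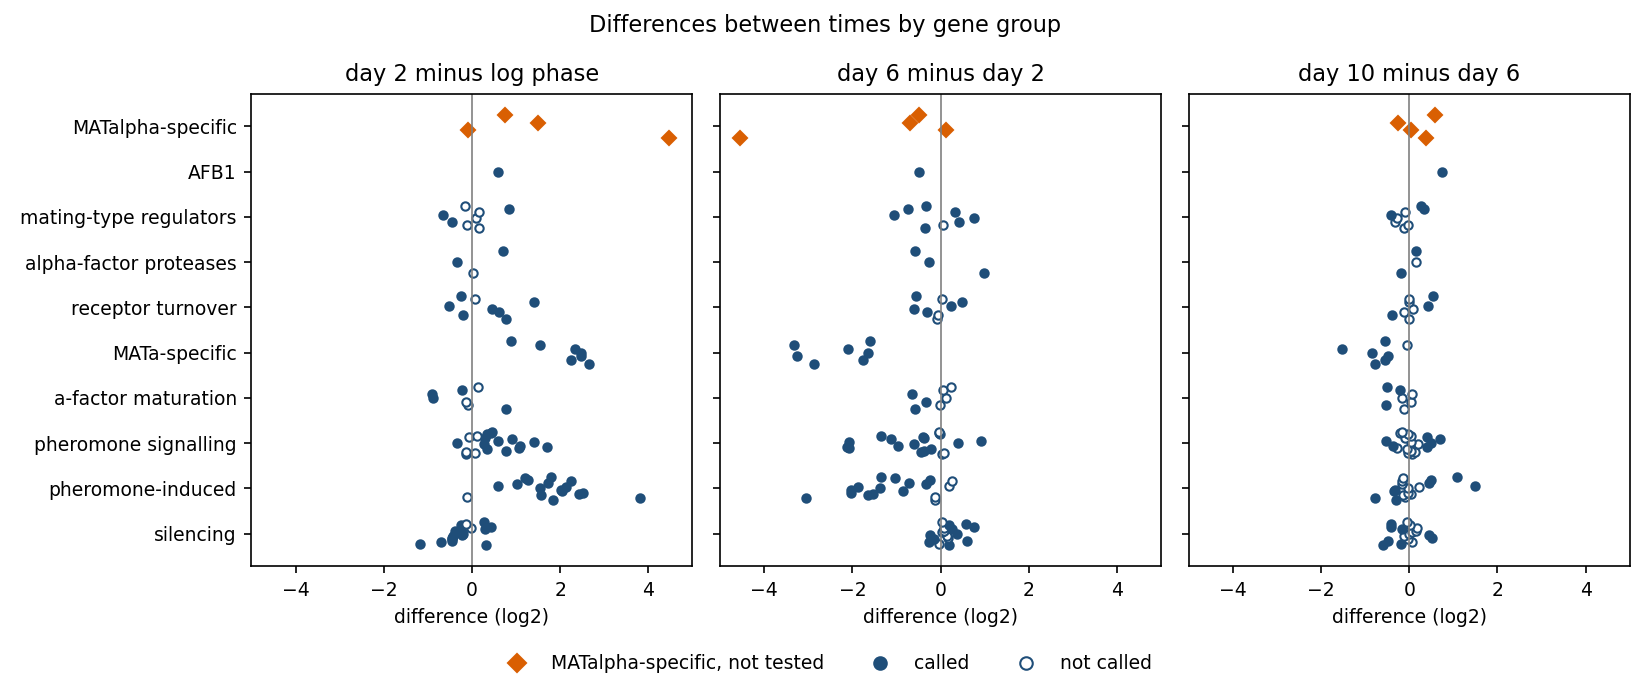
Difference in level (log2, horizontal axis) of every gene of each list (rows) for day 2 against log phase, day 6 against day 2 and day 10 against day 6 (panels). Diamonds are the 4 MATalpha-specific genes, which were not tested, filled points are genes called at an adjusted p under 0.05 and open points are genes that were not called. MF(ALPHA)1 stands at 4.47 in the first panel and at -4.56 in the second, and all 7 MATa-specific genes lie above 0 in the first and below 0 in the second.

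Both mating types use the same cascade behind the pheromone receptors, from a G protein to a kinase series and the transcription factor Ste12. Of its 19 genes, 13 rose and 2 fell on day 2 against log phase, with a median of 0.35, beside 39% and 41.5% of all genes. With hybridisation control centring 6 of the 19 rose and 4 fell, beside 16.6% and 55.7% of all genes. FUS3, the mating kinase, rose by 1.69 ± 0.06 (adjusted p = 1.7e-11), SST2, which shuts off the G protein, by 1.41 ± 0.07 (adjusted p = 7.79e-10), the G protein subunit gene GPA1 by 1.09 ± 0.07 (adjusted p = 5.08e-09) and FAR1, which arrests the cell cycle, by 1.06 ± 0.14 (adjusted p = 6.82e-06). On day 6 against day 2, 12 fell and 2 rose, beside 31.9% and 35.2% of all genes. With hybridisation control centring 18 fell and 0 rose, where 83.9% and 1.87% of all genes did. As deposited, the differences were -2.13 ± 0.06 for FUS3, -2.08 ± 0.14 for FAR1, -2.07 ± 0.07 for SST2 and -1.34 ± 0.09 for the G protein subunit gene STE4. On day 10 against day 6, 4 rose, STE12 by 0.71 ± 0.07 (adjusted p = 2.28e-06) among them, and 2 fell, beside 28.8% and 32.1% of all genes. With hybridisation control centring 5 rose and 0 fell, beside 29.3% and 6.29% of all genes.

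Of 17 genes that pheromone is known to induce, 16 rose and 0 fell on day 2 against log phase, with a median of 1.79. The shares of all genes were 39% and 41.5%. AGA1, the anchor of a-agglutinin, rose by 3.80 ± 0.11 (adjusted p = 5.39e-12), and FUS1, a cell fusion gene, by 2.53 ± 0.10 (adjusted p = 1.04e-10). FIG2, a cell wall adhesin gene, rose by 2.43 ± 0.14 (adjusted p = 1.87e-09), and PRM4 rose by 2.24 ± 0.15 (adjusted p = 1.01e-08). On day 6 against day 2, 13 of the 17 fell and 0 rose, with a median of -1.04, beside 31.9% and 35.2% of all genes. The differences were -3.06 ± 0.11 for AGA1, -2.03 ± 0.10 for KAR4, -2.03 ± 0.10 for FUS1 and -1.86 ± 0.11 for PRM1. On day 10 against day 6, 4 rose and 4 fell, beside 28.8% and 32.1% of all genes. With hybridisation control centring 5 rose and 1 fell, beside 29.3% and 6.29% of all genes. PRM10 rose by 1.48 ± 0.11 (adjusted p = 2.54e-07) and SCW10, a cell wall glucanase gene, by 1.08 ± 0.07 (adjusted p = 1.22e-07). In the other direction, AGA1 averaged 7.91 ± 0.15 on day 6 and 7.14 ± 0.13 on day 10 (SD, n = 3 each).

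Alpha genes at HML are held silent by the Sir proteins, by factors that bind the silencers and by histone and N-terminal acetyltransferases. Of 17 genes of this kind, 4 rose and 11 fell on day 2 against log phase, with a median of -0.23, and 0 rose and 13 fell with hybridisation control centring, or 1 and 7 without bioB. The shares of all genes that rose and fell were 39% and 41.5% as deposited, 16.6% and 55.7% with that centring, and 27.2% and 33.1% without bioB. The acetyltransferase subunit genes ARD1 and NAT1 fell by differences of -1.17 ± 0.06 (adjusted p = 1.35e-09) and -0.70 ± 0.06 (adjusted p = 1.17e-07). The origin recognition genes ORC2 and ORC3 were each at -0.46, with SE of 0.05 and 0.08 (adjusted p = 3.23e-06 and 0.000154). On day 6 against day 2, 7 rose and 3 fell as deposited, beside 35.2% and 31.9% of all genes. With hybridisation control centring 0 rose and 14 fell, near the 1.87% and 83.9% of all genes. SIR1, which helps to set up silencing, was 0.76 ± 0.07 higher on day 6 than on day 2 as deposited (adjusted p = 8.3e-07), which turned to -0.01 with hybridisation control centring. Over all 87 measured genes of the 9 lists, 48 rose and 22 fell on day 2 against log phase (median 0.31), 15 rose and 48 fell on day 6 against day 2 (median -0.25), and 16 rose and 24 fell on day 10 against day 6 (median -0.05). With hybridisation control centring these counts were 32 and 33, 0 and 80, and 18 and 4. Rises thus no longer outnumbered falls on day 2, but in that setting 16.6% of all genes rose and 55.7% fell. In the later comparisons 1.87% and then 29.3% of all genes rose, and 83.9% and then 6.29% fell. Without bioB 41 list genes rose and 14 fell on day 2, beside 27.2% and 33.1% of all genes. As deposited, the medians over all 5449 genes were -0.02, 0.02 and -0.02 for day 2 against log phase, day 6 against day 2 and day 10 against day 6. Of these genes 39%, 35.2% and 28.8% rose, and 41.5%, 31.9% and 32.1% fell.

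The genes most like each of the 4 over the 12 arrays were found by Pearson correlation among 5306 genes above background in at least 1 time. The points share arrays and times, so the correlations are a description. For MF(ALPHA)1 they were DCI1 (0.993), PDC5 (0.990), SPE1 (0.986), YBL005W-A (0.984) and YCR102C (0.984). These values rest on the gap between the 3 day 2 arrays and the other 9. PDC5, a pyruvate decarboxylase gene, averaged 9.16 in log phase, 12.99 on day 2, 9.30 on day 6 and 9.94 on day 10. DCI1, a gene for a peroxisomal enzyme, averaged 5.89, 6.69, 5.93 and 6.01 at the same times. FUS3 was at place 6 in this order (0.983), and of the pheromone-induced genes FIG1 (0.971), PRM1 (0.969) and KAR4 (0.967) were within the highest 20.

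For SAG1 the highest correlation was with FUS2 (0.995), a cell fusion gene on the pheromone-induced list. FUS2 averaged 6.42 ± 0.06 in log phase, 8.46 ± 0.25 on day 2, 7.60 ± 0.08 on day 6 and 7.26 ± 0.14 on day 10 (n = 3 each, SD), and was lower at each time after day 2, as SAG1 was. The isomaltase gene IMA1 (0.993), FRT2 (0.984), YGR109W-A (0.982) and CST6 (0.982) came next. For STE3 the closest genes were YIL165C (0.977), KRE6 (0.962), MID2 (0.960), VHR1 (0.958) and MET13 (0.957). KRE6 acts in the synthesis of cell wall glucan and MID2 is a sensor of cell wall stress. KRE6 averaged 8.95 in log phase, 9.98 on day 2, 9.44 on day 6 and 10.26 on day 10. SCW10 was at place 8 for STE3 (0.952) and AFB1 at place 14 (0.946). MF(ALPHA)2 had lower correlations, led by DBR1 (0.816), MUP3 (0.766), AUA1 (0.765), RSC6 (0.749) and SCM3 (0.745), with its own level at background.

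**Figure D4:**
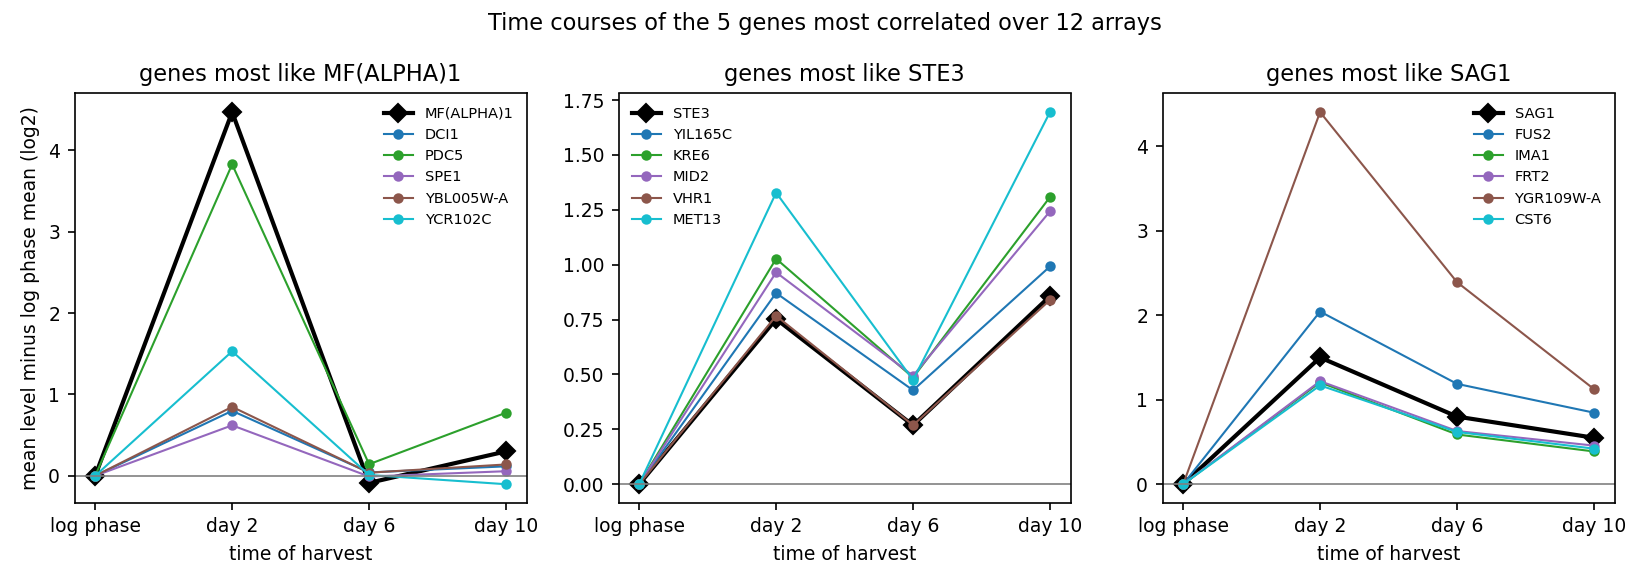
Mean level minus the log phase mean (log2, vertical axis) at each time (horizontal axis) for MF(ALPHA)1, STE3 and SAG1 (black) and the 5 genes with the highest correlation to each over 12 arrays (colours). The panel of MF(ALPHA)1 shows a single peak on day 2, that of STE3 highs on days 2 and 10 around a low on day 6, and that of SAG1 a peak on day 2 followed by lower levels.

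The nearest measured genes on either side of the 4, by the RefSeq table of strain S288C, were looked up after their values were seen. Genes that were not measured were passed over. UIP4, beside MF(ALPHA)1, was 3.37 ± 0.08 higher on day 2 than in log phase (adjusted p = 1.22e-12). It averaged 5.95 in log phase, 9.32 on day 2, 9.76 on day 6 and 8.12 on day 10, so it stayed high on day 6, when MF(ALPHA)1 was near background. POS5, on the other side of MF(ALPHA)1, rose by 0.23 ± 0.10 on day 2 (adjusted p = 0.0403). Beside SAG1, MRX12 fell on day 2 by a difference of -1.10 ± 0.06 (adjusted p = 1.87e-09) and APL1 rose by 0.66 ± 0.06 (adjusted p = 2.96e-07). Beside STE3, COY1 was at -0.09 ± 0.05 (adjusted p = 0.159) and LST4 rose by 0.30 ± 0.07 (adjusted p = 0.00202), and beside MF(ALPHA)2, LIF1 rose by 0.44 ± 0.09 (adjusted p = 0.000375) and MMS2 by 0.14 ± 0.06 (adjusted p = 0.0328). With hybridisation control centring POS5, LST4 and MMS2 turned to -0.19, -0.12 and -0.28, LIF1 was 0.02 and APL1 0.24, and none of these 5 was called. Without bioB, POS5, LST4 and MMS2 were also not called.

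Under quantile normalization, both hybridisation control centrings and the 3' minus 5' covariate, MF(ALPHA)1 stayed between 4.05 and 4.47 for day 2 against log phase, and between -5.37 and -3.92 for day 6 against day 2. SAG1 stayed between 1.08 and 1.83 for day 2 against log phase and STE3 between 0.33 and 0.80. For day 6 against day 2, SAG1 stayed between -1.51 and -0.70 and STE3 between -1.29 and -0.48. The smaller differences of day 10 from log phase changed direction with hybridisation control centring for MF(ALPHA)1, STE3 and SAG1, as given beside each gene.

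**Figure D5:**
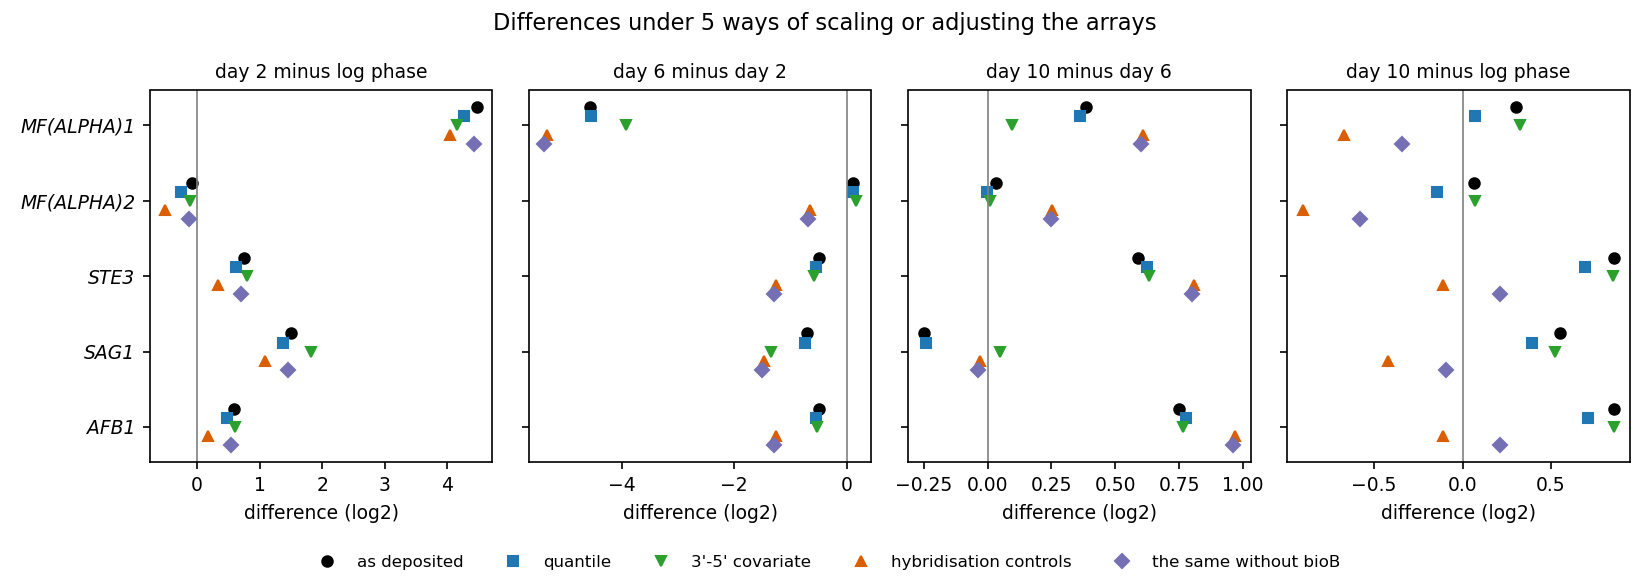
Difference in level (log2, horizontal axes, a separate range in each panel) of the 4 MATalpha-specific genes and AFB1 (rows) in 4 comparisons (panels) as deposited, after quantile normalization, with the 3' minus 5' signal as covariate, and after centring on the hybridisation controls with and without bioB. For day 2 against log phase MF(ALPHA)1 stays at 4.05 or above, while for day 10 against log phase the markers of MF(ALPHA)1, STE3, SAG1 and AFB1 lie on both sides of 0.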

How the data were processed

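Per the labels' protocols, biotin-labelled RNA came from frozen pellets of cells. The authors deposited 1 value per probe set and array; the submitters' processing notes name PLIER, with no version. How background and differences between arrays were handled is not given in the sources used here. These deposited values, from 5.11 to 13.79, were taken as log2 because of their range. Among 10928 probe sets were 213 controls, 7244 annotated with a single gene, 1 with several and 3470 with none. Names were updated through a RefSeq table of strain S288C (12 symbols), and 5498 probe sets covered 5449 S. cerevisiae genes; for 47 genes the probe set with the highest mean was used, none of them on a list.

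A linear model with a coefficient per time was fitted to all 12 arrays and all 5449 genes with limma 3.58.1 in R 4.3.3 (8 residual degrees of freedom, 12.9 with the prior) after a check on simulated data. Benjamini-Hochberg adjustment ran over all genes within each comparison, and genes were called at an adjusted p under 0.05. The members and the 9 lists (92 genes, 87 measured) were chosen with earlier results of these data known. Named were the 4 members, every gene of a list of at most 8 genes and every regulator, up to 4 called genes with the largest change in longer lists, and the 5 genes most correlated with each member; the chromosomal neighbours and the genes marked by their place in the correlation order were added after their values were seen. No sequence was used here.

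Other settings were quantile normalization, a linear offset of 16, centring on the median, on 27 hybridisation controls or on the 18 other than bioB, a filter on dim genes, averaged probe sets, a trend and robust prior, the 6 arrays of a comparison alone, the replicate number as a block, each array left out and a 2-fold minimum. The covariate and the 99th percentile of background were chosen after seeing the data. Replicate numbers did not pair the samples: of 18 same-numbered pairs of arrays, 5 had deviations correlated above 0.1, and the range was -0.29 to 0.39. Within a time the levels correlated between 0.981 and 0.998.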

Additional observations from a re-analysis of the deposited data

How the results depend on the processing

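For day 2 against log phase, MF(ALPHA)1 (4.47) was 4.17 with an offset of 16, 4.26 with quantile normalization, 4.05 with hybridisation control centring and 4.15 with the 3' minus 5' covariate. MF(ALPHA)2 (-0.08) was -0.25 with quantile normalization and -0.50 with hybridisation control centring. STE3 (0.75) was 0.66 with the offset, 0.62 with quantile normalization and 0.33 with hybridisation control centring. SAG1 (1.50) was 1.08 with hybridisation control centring and 1.83 with the covariate. AFB1 lost its call with hybridisation control centring (0.17) and, at 0.59, with the 2-fold minimum, but kept it without bioB (0.55). Of the list genes, 48 rose and 22 fell, beside 39% and 41.5% of all genes. With hybridisation control centring 32 rose and 33 fell, beside 16.6% and 55.7% of all genes. Without bioB 41 rose and 14 fell, beside 27.2% and 33.1% of all genes. The 2-fold minimum left 26 and 1. For the 2-fold minimum and the covariate no share of all genes is given in this section.

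For day 6 against day 2, MF(ALPHA)1 (-4.56) was -4.24 with the offset, -5.33 with hybridisation control centring, -5.37 without bioB and -3.92 with the covariate. MF(ALPHA)2 (0.11) reversed to -0.65 with hybridisation control centring and -0.69 without bioB. STE3 (-0.48) was -0.55 with quantile normalization, -1.25 with hybridisation control centring, -1.29 without bioB and -0.58 with the covariate. SAG1 (-0.70) was -1.47 with hybridisation control centring, -1.51 without bioB and -1.35 with the covariate. AFB1, at -0.48, lost its call under the 2-fold minimum. The list genes that rose numbered 15 as deposited, 0 with either centring, 9 with the covariate and 0 with the 2-fold minimum. Those that fell numbered 48 as deposited, 80 with either centring, 34 with the covariate and 22 with the 2-fold minimum. Of all genes 35.2% rose and 31.9% fell as deposited, 1.87% and 83.9% with hybridisation control centring, and 1.65% and 85.2% without bioB.

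For day 10 against day 6, MF(ALPHA)1 (0.39) was 0.094 with the covariate. MF(ALPHA)2 (0.03) was 0.25 with either centring (0.254 and 0.247). STE3 (0.59) was 0.81 with hybridisation control centring and 0.80 without bioB. SAG1 (-0.25) was -0.030 and -0.038 with these centrings and reversed to 0.050 with the covariate. AFB1, at 0.75, lost its call under the 2-fold minimum. List genes that rose numbered 16, and 2 with the 2-fold minimum. Those that fell numbered 24, 4 with either centring and 1 with the 2-fold minimum. Of all genes 28.8% rose and 32.1% fell as deposited, 29.3% and 6.29% with hybridisation control centring, and 27.4% and 6.02% without bioB.

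For day 10 against log phase, MF(ALPHA)1 (0.30) reversed to -0.67 with hybridisation control centring and -0.34 without bioB. MF(ALPHA)2 (0.07) was -0.15 with quantile normalization, -0.90 with hybridisation control centring and -0.58 without bioB, all close to background. STE3 (0.86) was 0.75 with the offset, 0.69 with quantile normalization, 0.21 without bioB and reversed to -0.11 with hybridisation control centring. SAG1 (0.55) was 0.39 with quantile normalization and reversed to -0.42 with hybridisation control centring and -0.093 without bioB. AFB1 (0.86) reversed to -0.11 with hybridisation control centring and lost its call without bioB (0.21) and, at 0.86, with the 2-fold minimum. List genes that rose numbered 32 as deposited, 7 with either centring and 7 with the 2-fold minimum. Those that fell numbered 29, 73 with hybridisation control centring, 62 without bioB and 9 with the 2-fold minimum. Of all genes 39.5% rose and 39.8% fell as deposited, 6.99% and 81.2% with hybridisation control centring, and 10.8% and 67.4% without bioB. A centring moves every gene by the same amount, and the 2-fold minimum narrows the calls by its construction; for the other shifts the cause was not tested.

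With the replicate number as a block, the differences of the members and AFB1 were the same by construction (MF(ALPHA)1 4.47), and 48 list genes rose and 21 fell on day 2 against log phase, against 48 and 22 without the block. The numbers only name the samples, so no pairing was assumed. Leaving out single arrays moved MF(ALPHA)1 between 0.20 and 0.50 for day 10 against day 6 and between 0.11 and 0.41 for day 10 against log phase, the low values without day 10 replicate 2. AFB1 stayed between 0.58 and 0.61 for day 2 against log phase. Signal over background limits MF(ALPHA)2 at all times and MF(ALPHA)1 outside day 2.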
